A study of Rattus norvegicus with 6 samples.

Results

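The brush border of the proximal tubule carries enzymes that split peptides in the tubular fluid and transporters that take up what they release. The genes described here are 10 such genes out of 17051 listed in the files, chosen by name: the aminopeptidases Anpep and Enpep, the endopeptidases Mme, Mep1a and Mep1b, the dipeptide-releasing Dpp4, the dipeptidase Dpep1, the gamma-glutamyltransferase Ggt1 and the peptide transporters Slc15a1 and Slc15a2. All 10 were present in every rat. Kidney RNA was sequenced from male Sprague Dawley rats, of which AL rats 61, 71 and 88 had standard chow as they liked ("normal diet" in the labels), and HD rats 64, 67 and 69 had an amino acid mixture composed like hemoglobin added to chow ("hyperammonemic diet"). Both diets lasted 7 days. The ages of the rats are not given in the sources used here, and the RNA came from kidney tissue with no cell type selected. Every rat was a separate library, with 3 rats in each group. The comparison asked whether a diet rich in free amino acids was accompanied by a different level of the genes for peptide breakdown and peptide uptake.

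Small filtered peptides are not excreted in bulk. Aminopeptidases, endopeptidases and dipeptidyl peptidase take them apart at the microvillus surface, and the products leave the lumen as free amino acids through amino acid transporters or as di- and tripeptides through proton-coupled peptide transporters. Ggt1 and Dpep1 act in sequence on glutathione, the former removing the glutamyl group and the latter splitting the remaining cysteinyl-glycine. Several of these enzymes also end the action of peptide hormones, such as angiotensins (Enpep), natriuretic peptides (Mme) and incretins (Dpp4).

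Diet was assigned by rat, so each rat was counted as a sample. Total estimated counts ranged from 12499945 to 30466461 per rat. Rats of the same group differed by more than sampling noise (over the 6 pairs, chi-square divided by its degrees of freedom was 24.1 to 81.2). Of the 12 proximal tubule markers, the endocytosis receptor gene Lrp2 was at 185 to 244 TPM and the phosphate transporter gene Slc34a1 at 906 to 2137 TPM, while the bicarbonate transporter gene Slc4a4 was at 0.36 to 2.23 TPM. In the early segment list the glucose transporter gene Slc5a2 was at 0.63 to 1.38 TPM and the lactate transporter gene Slc5a12 at 0.09 to 0.30 TPM. Levels within a gene are given as CPM, the count scaled to a common library size with edgeR's TMM factors. Levels of different genes are compared only as the deposited TPM, which is scaled to the transcript length listed in the files. Whether the listed rn5 transcripts are complete was not tested, and an order of genes by TPM rests on those lengths.

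By the quasi-likelihood test of edgeR, 0 of the 10 genes differed between the groups at the threshold used throughout (*P* adjusted over all genes, 0.05 or less), as for 0.0% of the 11553 genes tested. At an unadjusted *P* value under 0.05 there was 1 of 10, Dpep1, which was lower in the HD group, against 10.6% of all genes. Under DESeq2, 1 of 10 passed the adjusted threshold, again Dpep1, against 1.58% of all genes, and 3 of 10 had an unadjusted *P* value under 0.05, against 11.5%. The other 9 genes had fitted values above 0, or 8 where counts were scaled by library size alone and Mep1b was at -0.059. In TPM both Mep1b (-0.039) and Mme (-0.024) were below 0. The median log2 fold change over the 10 genes was 0.20, while 51.3% of all genes were above 0 and their median was 0.0067. Every rat of one group lay above every rat of the other for 3 of the 10 genes (Dpp4, Ggt1 and Dpep1), against 14.3% of all genes. The HD rats were above for 2 of them, Dpp4 and Ggt1 (7.25% of all genes), and below for 1, Dpep1 (7.01%). With 3 rats a group, 0.1 is the smallest two-sided *P* value that the exact permutation test allows.

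**Figure D1:**
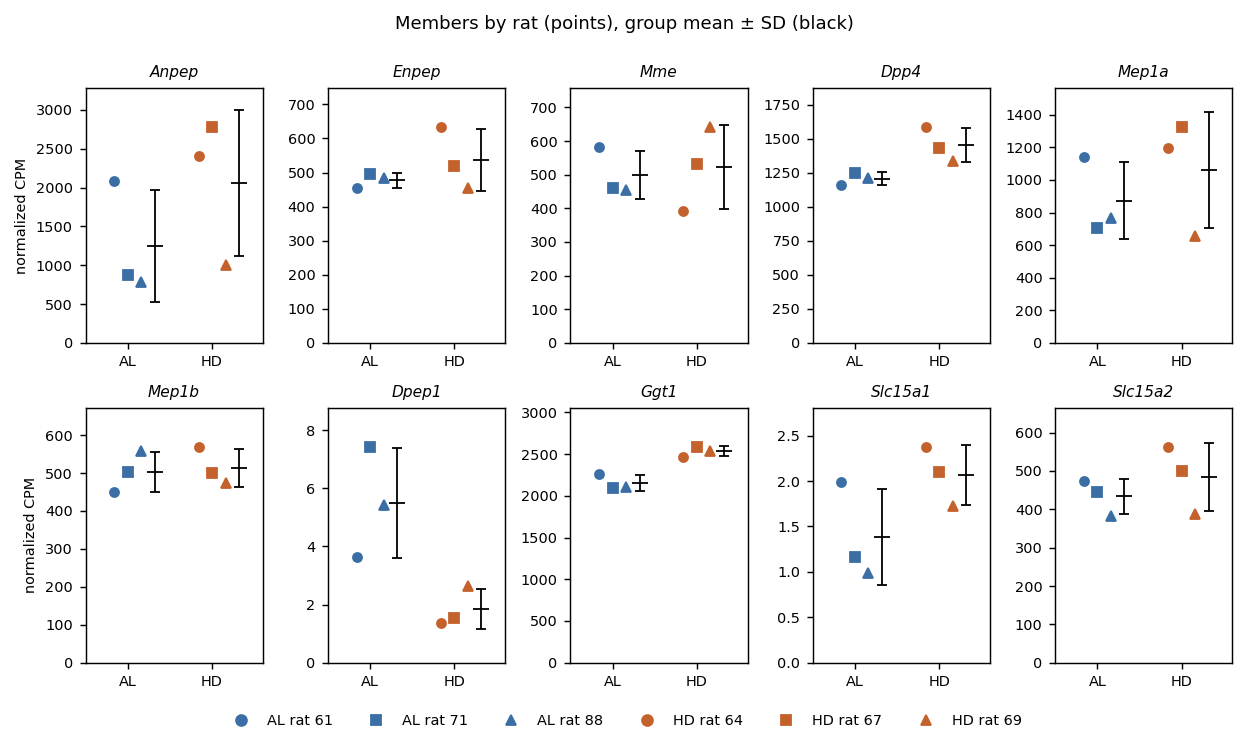
Normalized CPM (vertical axes, each from 0) of the 10 genes in each rat, with the 3 AL rats in blue, the 3 HD rats in orange, and the group mean ± SD in black. Dpep1 is lower in all 3 HD rats, Ggt1 and Dpp4 are higher in all 3, and Anpep spreads from 787 to 2780.0 CPM within and across the groups.

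Upstream sequences are shown for the gene that differed most between the groups (Dpep1) and for the pair with the largest SD within groups on the log2 scale (Anpep at 0.79 and Mep1a at 0.47). Each is the run of 250 bases before the RefSeq gene start, read 5′ to 3′ on the strand of the gene from RefSeq's assembly GRCr8, which is a later build than the rn5 build of the expression files. Capitals mark the letters GTTAAT, a half-site of the hepatocyte nuclear factor 1 proteins, transcription factors of the proximal tubule.
Anpep (GRCr8, chr1:143195102-143195351, minus strand): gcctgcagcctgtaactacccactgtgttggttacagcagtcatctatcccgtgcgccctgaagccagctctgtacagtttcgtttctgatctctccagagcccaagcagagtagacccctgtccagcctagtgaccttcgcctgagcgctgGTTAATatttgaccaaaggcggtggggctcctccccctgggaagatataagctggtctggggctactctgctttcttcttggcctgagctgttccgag
Mep1a (GRCr8, chr9:24971651-24971900, plus strand): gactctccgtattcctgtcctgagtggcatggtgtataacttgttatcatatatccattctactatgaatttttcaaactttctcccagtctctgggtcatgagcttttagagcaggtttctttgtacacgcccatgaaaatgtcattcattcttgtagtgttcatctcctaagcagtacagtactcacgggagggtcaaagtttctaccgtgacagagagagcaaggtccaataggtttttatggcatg
Dpep1 (GRCr8, chr19:68127908-68128157, plus strand): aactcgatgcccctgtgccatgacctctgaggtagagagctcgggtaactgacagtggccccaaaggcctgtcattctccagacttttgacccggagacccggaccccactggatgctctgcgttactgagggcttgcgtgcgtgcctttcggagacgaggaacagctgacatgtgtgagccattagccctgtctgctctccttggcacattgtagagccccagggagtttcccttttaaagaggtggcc
All 10 genes matched an entry of the promoter table. On either strand, GTTAAT stood in the 250 bases of 2 of the 10 genes (Anpep, beginning 98 bases before the start, and Mep1b) and in 6.45% of all 33469 promoters. The letters CAAAGTCCA, a site of hepatocyte nuclear factor 4, stood in 0 of the 10 and in 0.338% of all. The TATA box letters TATAAA stood in 0 of 10 against 12.9%, and the GC box GGGCGG stood in 1 of 10 (Mme) against 30.5%. These are matches of letters in a fixed window and not sites shown to be bound. Mep1a held none of these 4 motifs, so none could be shared with Anpep, which was high in the same rats. Shared regulation of the pair was not tested.

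By TPM, Ggt1 was the most abundant of the 10 genes on its listed length, although in CPM, which leaves length out, Anpep was above it in HD rat 67. The enzyme sits on the outer face of the brush border membrane and removes the glutamyl group of glutathione and its conjugates. Its transcript lies on chromosome 20 of rn5 from 16209337 to 16231303 on the minus strand, with 8 exons and a listed length of 1302 bases. In the AL group Ggt1 was at 2257, 2089 and 2104 CPM (rats 61, 71 and 88), and in the HD group at 2468, 2587 and 2538 CPM (rats 64, 67 and 69). The HD rats were all above the AL rats, and the rats of each group lay close together. The means were 2150.3 ± 93.0 CPM (SD, *n* = 3) and 2531 ± 60.0 CPM (SD, *n* = 3), a ratio of 1.177. The log2 fold change was 0.24 (SE 0.12, 95% interval -0.055 to 0.52, edgeR adjusted *P* = 0.556), and the exact permutation test gave *P* = 0.1 (two-sided). Its SD within groups on the log2 scale, 0.050, was larger than that of only 1.56% of the 64 genes within 1 log2 unit of its level. The adjusted *P* value from DESeq2 was 0.260. The groups stayed apart with library size alone and in TPM, where 13.6% and 12.7% of all genes had groups that did not overlap.

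Dpep1, the dipeptidase that takes the next step of glutathione breakdown and also splits leukotriene D4, had the largest difference. It lies on chromosome 19 from 66688877 to 66703636 on the plus strand, with 11 exons. Dpep1 was at 3.65, 7.43 and 5.43 CPM in AL rats 61, 71 and 88, and at 1.36, 1.55 and 2.62 CPM in HD rats 64, 67 and 69. Every HD rat was below every AL rat, and the lowest AL rat, 61, stood nearest to the highest HD rat, 69. The means were 5.50 ± 1.89 and 1.84 ± 0.681 CPM (SD, *n* = 3 each), so the HD mean was 0.335 times the AL mean. The log2 fold change was -1.55 (SE 0.39, 95% interval -2.46 to -0.65, edgeR unadjusted *P* = 0.00459, adjusted *P* = 0.379), and the exact permutation test gave *P* = 0.1 (two-sided). DESeq2 gave -1.56 with an adjusted *P* value of 0.0376, which is past the threshold, and over all alternatives the adjusted *P* value ranged from 0.0376 to 0.916.

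These values rest on few reads. The counts behind them were 46, 134 and 82 in the AL rats and 16, 31 and 82 in the HD rats. An exact Poisson 95% interval, which covers counting error only, ran from 9.15 to 26.0 for the lowest count (rat 64) and from 112 to 159 for the highest (rat 71). The level of Dpep1 in TPM, 1.31 to 8.37, was at percentile 45.4 of all genes, on its listed length of 1557 bases. Whether that listed transcript is complete was not tested, and the counts cover only reads assigned to it.

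In these kidney tissue libraries a lower level can come from fewer cells of a type or from less RNA per cell, and the libraries cannot tell these apart. Beside Dpep1, the leukocyte marker list was lower in the HD group for 10 of 10 genes, 6 of them at an unadjusted *P* value under 0.05, and the stromal list for 5 of 6, 3 of them under 0.05. Of all genes tested, 5.94% were lower at that unadjusted threshold with edgeR. The leukocyte antigen gene Ptprc was at 7.15, 17.3 and 9.33 CPM in AL rats 61, 71 and 88 and at 2.80, 3.25 and 4.96 CPM in HD rats 64, 67 and 69, a log2 fold change of -1.61 (SE 0.39, edgeR adjusted *P* = 0.368, DESeq2 adjusted *P* = 0.0133). The summed leukocyte level was 244 to 435 CPM in the AL group and 148 to 317 CPM in the HD group, and 1 of the 10 markers was at 0 in some rat. Most of this sum was a single gene, Cd74, at 193 to 292 CPM in the AL group and 116 to 263 CPM in the HD group. Cd74 had the smallest difference of the list (log2 fold change -0.27, SE 0.30, edgeR adjusted *P* = 0.822). The sum was lowest in rat 67 and Dpep1 in rat 64, and both were highest in rat 71. Ptprc had the rats in the same order as Dpep1, while Cd68 and Csf1r of the same list did not. The part of leukocytes in the Dpep1 difference was not tested.

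Dpp4, dipeptidyl peptidase 4, cleaves dipeptides from peptides that carry proline or alanine near the N-terminus. The gene spans 28 exons on chromosome 3 from 54957146 to 55038628, minus strand. Its levels were 1160, 1251 and 1213 CPM in AL rats 61, 71 and 88, and 1588, 1434 and 1341 CPM in HD rats 64, 67 and 69. All HD rats were above all AL rats, with the AL rats within a narrow range. The means were 1208 ± 46.1 and 1455 ± 125 CPM (SD, *n* = 3 each). This is a log2 difference of 0.27 (SE 0.13, 95% interval -0.027 to 0.56, edgeR adjusted *P* = 0.506; exact permutation test, two-sided, *P* = 0.1). From DESeq2 the adjusted *P* value was 0.338. With library size alone or in TPM, the groups of Dpp4 overlapped.

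Anpep, aminopeptidase N, removes neutral residues from the N-terminus and is a classic enzyme of the brush border. It lies on chromosome 1 from 142522426 to 142540882, minus strand, with 20 exons. Anpep was at 2082 CPM in AL rat 61 but at 873 and 787 CPM in AL rats 71 and 88, and at 2403 and 2780.0 CPM in HD rats 64 and 67 but at 997 CPM in HD rat 69. The rats thus stood at 2 distinct levels that cut across the diets: rats 61, 64 and 67 were high, and rats 71, 88 and 69 were low. AL rats averaged 1247 ± 724 CPM and HD rats 2059.9 ± 939.8 CPM (SD, *n* = 3 each). The log2 fold change of 0.72 had an SE of 0.48 and a 95% interval from -0.40 to 1.85 (edgeR adjusted *P* = 0.652). The highest rat was 3.53 times the lowest. The SD within groups, 0.79 on the log2 scale, was larger than that of 99.2% of the 130 genes within 1 log2 unit of its level. Without rat 61 the log2 fold change was 1.31 (edgeR adjusted *P* = 0.252) and without rat 69 it was 1.06 (adjusted *P* = 0.302), while the other 4 fits that left out a rat gave 0.45 to 0.60. Without rat 61 the groups did not overlap for 5 of the 10 genes, Anpep and Slc15a1 being added to the 3 (34.2% of all genes). Without rat 69 this held for 8 of the 10, with Anpep, Enpep, Mep1a, Slc15a1 and Slc15a2 added (34.0% of all genes).

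Mep1a and Mep1b encode the subunits of meprin, a metalloendopeptidase of the brush border. The beta subunit is anchored in the membrane, and the alpha subunit is held there by pairing with it. Mep1a (chromosome 9, 18925181 to 18953891, plus strand, 14 exons) was at 1143, 706 and 766 CPM in AL rats 61, 71 and 88, and at 1196, 1326 and 656 CPM in HD rats 64, 67 and 69. As for Anpep, rats 61, 64 and 67 were high and rats 71, 88 and 69 were low. The log2 fold change was 0.28 (SE 0.30, 95% interval -0.41 to 0.97, edgeR adjusted *P* = 0.803), with 0.53 without rat 61, 0.54 without rat 69, 0.15 without rat 71, 0.18 without rat 64 and 0.087 without rat 67. The SD within groups was larger than that of 94.2% of the 260 genes of like level.

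Mep1b (chromosome 18, 14847671 to 14873302, minus strand, 15 exons) did not show this split. It was at 450, 503 and 557 CPM in AL rats 61, 71 and 88, and at 569, 499 and 473 CPM in HD rats 64, 67 and 69. The groups overlapped throughout, and the log2 fold change was 0.031 (SE 0.13, 95% interval -0.28 to 0.34, edgeR adjusted *P* = 0.969). With library size alone the log2 fold change of Mep1b was -0.059. Within a rat, Mep1a exceeded Mep1b by TPM 1.98, 1.64 and 2.07 times in rats 61, 64 and 67, and 1.095, 1.07 and 1.08 times in rats 71, 88 and 69. The gene Mapre2, annotated on the other strand, spans the whole of Mep1b, with 0 pairs of overlapping exons, and the library kit does not mark the strand.

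Enpep and Mme both cut vasoactive peptides. Enpep, aminopeptidase A, removes acidic residues and turns angiotensin II into angiotensin III. It was at 453, 496 and 484 CPM in AL rats 61, 71 and 88, and at 634, 518 and 456 CPM in HD rats 64, 67 and 69, so that rat 69 lay among the AL rats. Its log2 fold change was 0.17 (SE 0.15, 95% interval -0.18 to 0.51, edgeR adjusted *P* = 0.753). It was 0.028 without rat 64 and 0.28 without rat 69, and 0.075 with library size alone.

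Mme, neprilysin, cleaves natriuretic peptides and enkephalins. It was at 583, 461 and 454 CPM in AL rats 61, 71 and 88, and at 393, 532 and 642 CPM in HD rats 64, 67 and 69. HD rats held both the lowest and the highest value, and the log2 fold change was 0.066 (SE 0.20, 95% interval -0.40 to 0.53, edgeR adjusted *P* = 0.952). In TPM the log2 fold change of Mme was -0.024. Enpep and Mme lie on the same chromosome, 2, at 252991577 to 253066142 (minus strand, 19 exons) and at 173193501 to 173275027 (plus strand, 23 exons).

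Podocytes, the filtration cells of the glomerulus, also carry Mme, Enpep and Dpp4. The podocyte marker list was higher in the HD group for 9 of 10 genes, 5 of them at an unadjusted *P* value under 0.05 (4.66% of all genes were higher at that threshold). Its summed level was 86.2 to 201 CPM in the AL group and 258 to 547 CPM in the HD group, with 0 of the 10 at 0 in any rat. Its part in the values of Mme, Enpep and Dpp4 was not tested. The highest podocyte sum (rat 69) went with the highest Mme, and with the lowest Enpep and Dpp4 of the HD group. In the AL group the lowest podocyte sum (rat 61) went with the highest Mme, and with the lowest Enpep and Dpp4 of that group.

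**Figure D2:**
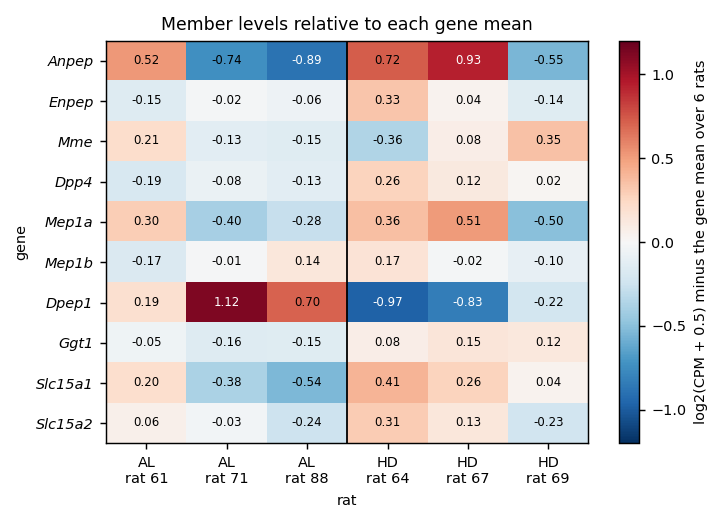
Log2(CPM + 0.5) of each gene (rows) in each rat (columns) minus that gene's mean over the 6 rats, AL rats left of the line and HD rats right of it, red above and blue below the mean. Anpep and Mep1a are red in rats 61, 64 and 67 and blue in rats 71, 88 and 69, and Dpep1 is blue in all HD rats.

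The peptide transporters were at very different levels. Slc15a2 encodes PEPT2, the high-affinity transporter of the later proximal tubule, and Slc15a1 encodes PEPT1, the low-affinity transporter best known from the small intestine. Slc15a2 (chromosome 11, 70022984 to 70052074, plus strand, 22 exons) was at 156 to 210 TPM, and Slc15a1 (chromosome 15, 110194618 to 110238806, minus strand, 23 exons) at 0.54 to 1.15 TPM. The TPM of Slc15a2 was 179, 293 and 289 times that of Slc15a1 in AL rats 61, 71 and 88, and 182, 179 and 172 times in HD rats 64, 67 and 69.

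Slc15a2 was at 474, 445 and 384 CPM in AL rats 61, 71 and 88, and at 563, 499 and 389 CPM in HD rats 64, 67 and 69. Rats 64 and 67 were above all AL rats and rat 69 was within their range. The log2 fold change was 0.16 (SE 0.17, 95% interval -0.23 to 0.54, edgeR adjusted *P* = 0.806). It was 0.033 without rat 64, 0.084 without rat 88 and 0.30 without rat 69, and 0.069 with library size alone.

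Slc15a1 was at 1.99, 1.16 and 0.993 CPM in AL rats 61, 71 and 88, and at 2.38, 2.10 and 1.73 CPM in HD rats 64, 67 and 69. Only AL rat 61 reached into the range of the HD rats. The log2 fold change was 0.58 (SE 0.39, 95% interval -0.34 to 1.503, edgeR adjusted *P* = 0.661; exact permutation test, two-sided, *P* = 0.2). Its counts were 25, 21 and 15 in the AL rats and 28, 42 and 54 in the HD rats, and the exact Poisson 95% interval for the lowest count ran from 8.40 to 24.7. Without rat 61 the log2 fold change was 0.92, and on the log2(TPM + 1) scale it was 0.24. A short transcript also listed under Slc15a1, with 3 exons and 626 bases, had an estimated count of 0 in every rat. It was the only additional transcript, since each of the other 9 genes was listed with 1.

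**Figure D3:**
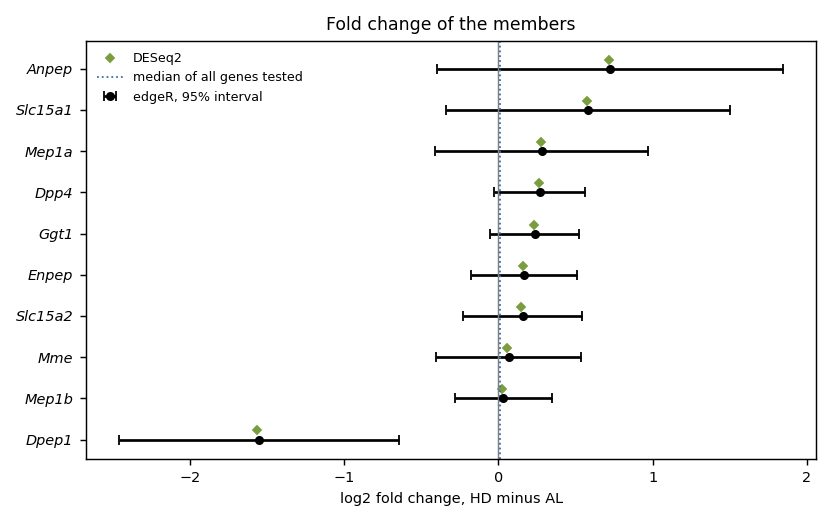
Log2 fold change of the 10 genes, HD minus AL (horizontal axis), with edgeR estimates and 95% intervals in black, DESeq2 estimates as green diamonds, and the median of all genes tested as a dotted line. Only the interval of Dpep1, -2.46 to -0.65, leaves out 0.

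By TPM, the order of the mean levels over the 6 rats was Ggt1 (2848), Anpep (748), Mep1a (504), Dpp4 (437), Mep1b (347), Mme (228), Enpep (213), Slc15a2 (179), Dpep1 (3.84) and Slc15a1 (0.875). The ranges of Ggt1 and Anpep did not overlap, nor did those of Slc15a2 and Dpep1 or of Dpep1 and Slc15a1. All other neighbours in the order overlapped in their ranges over rats. Within single rats Dpp4 was above Mep1b in 6 of 6, Mep1a above Dpp4 in 4 of 6, and Mme above Enpep in 3 of 6. Ggt1 took 48.7% to 54.9% of the summed TPM of the 10 genes in the AL group and 47.5% to 58.4% in the HD group. Together the 10 genes took 0.486% to 0.524% of all TPM in the AL group and 0.551% to 0.620% in the HD group, and 0.702% to 0.820% against 0.770% to 0.966% of all counts.

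The other genes of peptide breakdown were taken from 4 lists. Of the 22 other membrane-bound peptidases and transferases, 17 could be tested, with 9 higher (7 with library size alone) and 8 lower and 0.072 as the median of their log2 fold changes. At an unadjusted *P* value under 0.05, 2 were higher in the HD group (4.66% of all genes were) and 0 were lower (5.94% of all genes were). Folh1, a carboxypeptidase that releases glutamate, was at 2.38, 3.21 and 3.04 CPM in AL rats 61, 71 and 88 and at 10.9, 5.996 and 5.88 CPM in HD rats 64, 67 and 69 (log2 fold change 1.38, SE 0.32, edgeR adjusted *P* = 0.368, DESeq2 adjusted *P* = 0.0277). All HD rats were above all AL rats. Cpe, carboxypeptidase E, which trims prohormones, had a log2 fold change of 0.83 (SE 0.24, edgeR adjusted *P* = 0.398, DESeq2 adjusted *P* = 0.114). The most abundant gene of the list was Xpnpep2, a membrane aminopeptidase for peptides with proline, at 165 to 188 TPM, with a log2 fold change of 0.15 (SE 0.11).

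Among the 26 cytosolic and lysosomal enzymes that split small peptides, 25 were tested, 18 higher (16 with library size alone) and 7 lower, with a median of 0.12. At an unadjusted *P* value under 0.05, 4 were higher (4.66% of all genes were) and 0 lower (5.94% of all genes were). Pm20d2, a dipeptidase, was at 12.0, 11.1 and 9.26 CPM in AL rats 61, 71 and 88 and at 30.6, 18.9 and 17.1 CPM in HD rats 64, 67 and 69 (log2 fold change 1.04, SE 0.25, edgeR adjusted *P* = 0.368, DESeq2 adjusted *P* = 0.0277). The lysosomal carboxypeptidase gene Ctsa had a log2 fold change of 0.51 (SE 0.16, edgeR adjusted *P* = 0.406), the neurolysin gene Nln of 0.40 (SE 0.13, adjusted *P* = 0.406) and the aminopeptidase-like gene Npepl1 of 0.24 (SE 0.097, adjusted *P* = 0.458). In each of these 4 genes every HD rat was above every AL rat, as in 7.25% of all genes. The 4 were named for a low unadjusted *P* value, which itself favours groups that do not overlap. The most abundant gene of the list, the aminoacylase gene Acy1, was at 2245 to 2789 TPM and had a log2 fold change of 0.11 (SE 0.17).

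The list of transport partners held 10 genes, 6 higher (4 with library size alone) and 4 lower, with a median of 0.042. At an unadjusted *P* value under 0.05, 0 were higher (4.66% of all genes were) and 2 were lower (5.94% of all genes were). Slc9a3 encodes the sodium-proton exchanger NHE3, which returns protons to the lumen where peptide transporters use them. It was at 119, 116 and 140 CPM in AL rats 61, 71 and 88 and at 58.9, 72.2 and 106 CPM in HD rats 64, 67 and 69. Every HD rat was below every AL rat (log2 fold change -0.66, SE 0.21, edgeR adjusted *P* = 0.406, DESeq2 adjusted *P* = 0.126). Slc15a3, a peptide and histidine transporter of intracellular membranes that is known from leukocytes, was at 3.34, 8.87 and 4.04 CPM in the AL rats and at 1.53, 1.95 and 3.36 CPM in the HD rats in the same order (log2 fold change -1.23, SE 0.47, edgeR adjusted *P* = 0.432). Rat 69 lay just above the lowest AL rat, so the groups overlapped. The part of the leukocyte list in this value was not tested. The most abundant gene was Slc3a1, a subunit of the cystine transporter, at 4121 to 5024 TPM with a log2 fold change of 0.093 (SE 0.17).

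Of 12 genes for the structure of the microvillus, 9 were tested and all 9 had values above 0 (8 with RLE size factors, 7 with library size alone), with a median of 0.16, and 0 passed with edgeR, unadjusted under 0.05 or adjusted, or with DESeq2 after adjustment. Ezr, the gene for ezrin, which ties the membrane to actin, was the most abundant at 210 to 288 TPM, with a log2 fold change of 0.22 (SE 0.18). Its level was 535 CPM in AL rat 61 and 575 and 535 CPM in HD rats 64 and 67, against 406 and 385 CPM in AL rats 71 and 88 and 429 CPM in HD rat 69. The same rats were high for Ezr as for Anpep and Mep1a.

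**Figure D4:**
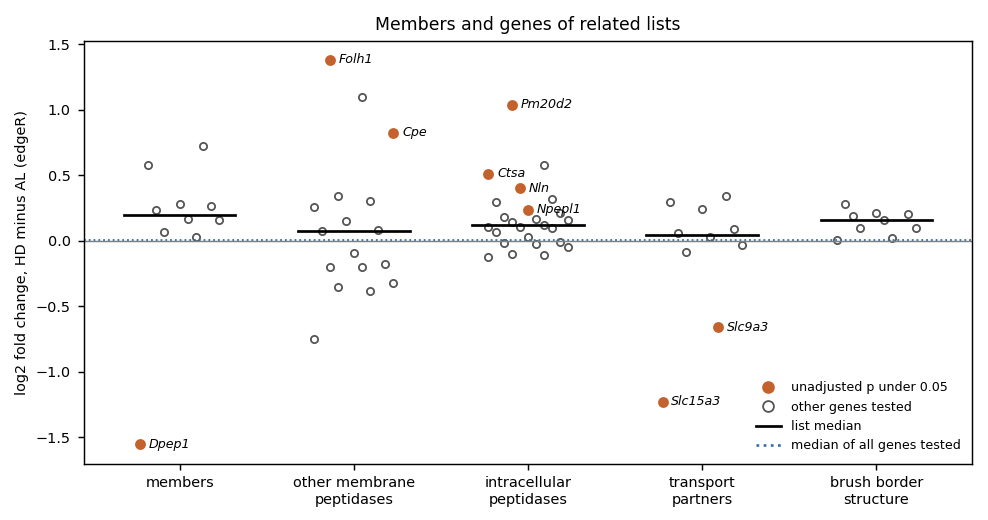
Log2 fold change, HD minus AL (vertical axis), of each tested gene in the 10 members and the 4 related lists, filled where the unadjusted *P* value was under 0.05, with list medians as bars and the median of all genes tested as a dotted line. Dpep1 at -1.55 and Slc15a3 at -1.23 are the lowest points, and Folh1 at 1.38 is the highest.

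The split of rats seen in Anpep and Mep1a was also present in marker lists of other cells. The summed endothelial level was 132 CPM in rat 61, 97.8 in rat 64 and 146 in rat 67, against 282 in rat 71, 284 in rat 88 and 299 in rat 69. The stromal sum was 178, 114 and 177 CPM in rats 61, 64 and 67 and 425, 383 and 273 CPM in rats 71, 88 and 69. The leukocyte sum was likewise 244, 215 and 148 CPM in rats 61, 64 and 67 and 435, 290 and 317 CPM in rats 71, 88 and 69. Most of the leukocyte sum was Cd74 in every rat. Rats with high Anpep and Mep1a thus had low endothelial, stromal and leukocyte sums, with 0 of the 6 genes of the endothelial and of the stromal list at 0 in any rat. Not every stromal and leukocyte marker followed its sum. Stromal Pdgfra was at 38.5 CPM in rat 69 and 50.8 CPM in rat 61, and leukocyte Ptprc at 4.96 CPM in rat 69 and 7.15 CPM in rat 61. The part of these cells in the values of Anpep and Mep1a was not tested. No batch or sequencing date is given in the sources used here.

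The proximal tubule list itself was higher in the HD group, with 10 of 12 genes above 0, 5 of them at an unadjusted *P* value under 0.05 (4.66% of all genes were higher at that threshold). Its median was 0.37 and its summed level 17919 to 23323 CPM in the AL group against 23506 to 29251 CPM in the HD group. The median of the 10 peptide genes, 0.20, was below that of this list. The list for the early segments had 5 of 5 tested genes above 0 (3 under 0.05, median 0.57, sums of 107 to 114 and 109 to 184 CPM), and the list for the late segment 5 of 5 (3 with library size alone, 0 under 0.05, median 0.11, sums of 7779 to 8963 and 7103 to 10971 CPM). The part of these lists in the values of Ggt1 and Dpp4 was not tested. The thick ascending limb list had 0 of 5 genes above 0 (median -0.17), and the distal convoluted tubule list 2 of 2 tested (median 2.49). The medians were -0.23 for principal cells, 0.20 for intercalated cells and 0.65 for erythroid RNA.

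**Figure D5:**
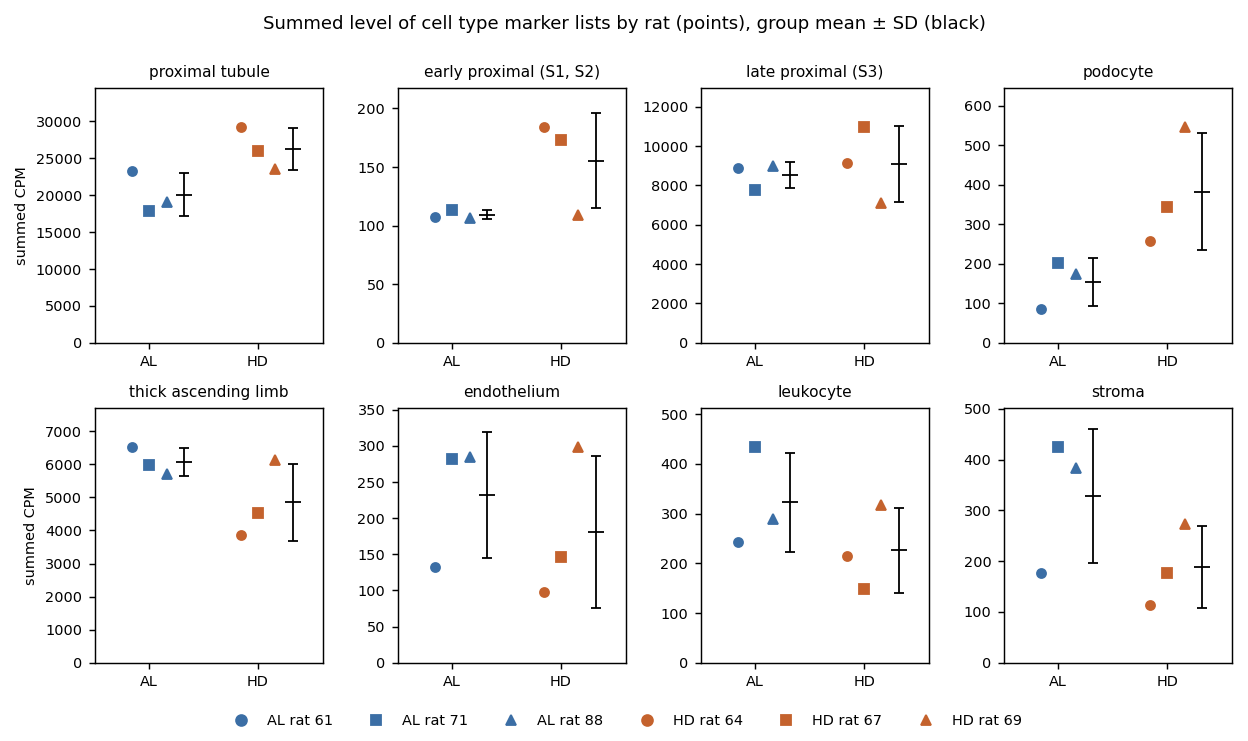
Summed normalized CPM (vertical axes, each from 0) of 8 marker lists in each rat, AL rats in blue and HD rats in orange, with the group mean ± SD in black. The endothelial sum is 132, 97.8 and 146 in rats 61, 64 and 67 and between 282 and 299 in rats 71, 88 and 69, and the podocyte sum is higher in every HD rat.

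Outside the 10 genes, those whose pattern over the rats was most like the mean centred level of the 10 were Clrn3, Lyrm1 and Rangap1, with Pearson's correlations of 0.998, 0.994 and 0.991 over 6 rats. These are given as a description of the closest among all genes tested. Clrn3 was at 38.4, 49.1 and 53.1 CPM in rats 61, 64 and 67 and at 17.6, 10.8 and 13.8 CPM in rats 71, 88 and 69. The mean level that chose these genes was itself high in rats 61, 64 and 67, so this order is part of the choice. The log2 fold changes of the 3 genes ranged from 0.17 to 0.80, with edgeR adjusted *P* values from 0.696 to 0.857.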

How the data were processed

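Kidney RNA of 6 rats was poly(A)-selected, made into libraries with a kit that does not mark the strand, and sequenced single-end. The authors ran RSEM 1.1.15 with UCSC gene definitions for rn5 and deposited estimated counts (expected counts, not normalized) per transcript. The authors also deposited TPM, scaled by RSEM to transcript length and library. Read filters are not given in the sources used here.

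Estimated counts were summed per gene and rounded. The 11553 genes with at least 30 counts in at least 1 rat were tested, all 10 members among them. Groups were compared by the quasi-likelihood test of edgeR 4.0.16 (R 4.3.3) after TMM normalization, with diet as sole term and Benjamini-Hochberg adjustment over all genes tested. The SE is the absolute log2 fold change over the square root of F. Exact permutation tests of single genes used log2(CPM + 0.5) (scipy 1.17.1). Alternatives were DESeq2 1.42.0, RLE size factors, library size alone, 2 other count filters, posterior mean counts, limma 3.58.1 on log2(TPM + 1), and leaving out each rat. The edgeR fit was tested on simulated counts. Promoter sequences are RefSeq's. Total counts differed 2.44 times between rats.

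The members, lists and tests were chosen with earlier results of these data known. Genes named are the 10 members, the genes of the 4 related lists at an unadjusted *P* value under 0.05, the most abundant gene of each related list, and the 3 genes most like the mean member pattern. Lrp2, Slc34a1, Slc4a4, Slc5a2, Slc5a12, Ptprc, Cd74, Cd68, Csf1r, Pdgfra and Mapre2 were named after their values were seen.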

Additional observations from a re-analysis of the deposited data

How the results depend on the processing

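Over 13 alternatives and 10 genes, 123 of 130 fold changes kept their direction and their side of the adjusted threshold. Dpep1 passed the threshold with DESeq2, which called 1 of the 10 genes against 0 with edgeR and gave 3 at an unadjusted *P* value under 0.05 (Dpep1, Ggt1 and Dpp4) against 1. Across the alternatives the log2 fold change of Dpep1 ranged from -1.91 to -1.23, with adjusted *P* values from 0.0376 to 0.916. Mep1b changed sign with library size alone (-0.059), in TPM (-0.039), without rat 61 (-0.044) and without rat 64 (-0.049). Mme changed sign in TPM (-0.024) and without rat 69 (-0.11). With each rat left out, Mep1b ranged from -0.049 to 0.12 and Mme from -0.11 to 0.23, and the cause was not tested.

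The number of genes at an unadjusted *P* value under 0.05 ranged from 1 to 3 with a rat left out, 2 without rat 61 (14.9% of all genes) and 3 without rat 69 (15.6%). The number whose groups did not overlap ranged from 3 to 8, 5 without rat 61 (34.2% of all genes) and 8 without rat 69 (34.0%), against 14.3% of all genes with every rat kept, and was 2 with library size alone and in TPM. With a rat left out, 0 genes passed the adjusted threshold in each fit, and the median log2 fold change ranged from 0.16 to 0.29. Library size alone gave a median of 0.12, and that of all genes was -0.074. No paired analysis was possible because the labels give every rat its own number and tie no AL rat to an HD rat. Dpep1 and Slc15a1 rest on 15 to 134 counts in a rat.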
